A study of Danio rerio with 9 samples.

Results

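Brain neurons whose axon had grown back past a severed spinal cord were compared, across all genes on the array, with brain neurons of fish whose cord had not been transected. The comparison takes the 3 regenerated and the 3 unlesioned arrays by their sample titles, 6 of the 9 arrays of the study, and all probe sets other than the array's own controls. The regenerated neurons came from adult zebrafish with a complete cord transection at vertebra 8, where the red tracer Fluororuby was applied. Fluoroemerald, a green tracer, was injected 4 mm beyond the lesion after 3 weeks to mark neurons whose axon had reached that point, and the neurons were sorted from dissociated brain 1 week later. The unlesioned neurons came from adult fish without a transection that received Fluororuby at the same vertebra and were sorted after 1 week. The time since the first tracer therefore differs between the groups, and no second tracer is given for the unlesioned fish. The other 3 arrays hold nonregenerated neurons of transected fish. They lent their spread to the model, and their values are shown beside the results. Each label names a biological replicate. Strain and sex, whether fish were pooled, and whether both lesioned groups came from the same fish are not stated in the labels.

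Many neurons of the brain stem and midbrain send axons down the cord to drive swimming and posture, and in adult zebrafish many of these axons grow back after injury, unlike those of mammals. A regrowing neuron is known to switch on growth-associated factors and cytoskeletal genes, and later to rebuild its synapses, ion gradients and energy supply. The brain around it holds radial glia, which act as progenitors in fish, oligodendrocytes, microglia and vessels, any of which can enter a sort of dissociated tissue. In such bulk samples, fewer cells of a type and less RNA per cell cannot be told apart.

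Each deposited value is a log2 expression value relative to the median of its own probe set over the 9 arrays, so differences between groups can be read but levels cannot be compared between genes. The presence of a neuronal marker in the sorted cells therefore cannot be read from these values. On the first principal component, with 33.4% of the variance, the regenerated arrays were separate from all others, and their SD over probe sets was 0.594 to 0.650, against 0.349 to 0.430 in the unlesioned arrays. The median of 22 negative control probe sets, was 0.48, 0.04 and 0.28 in regenerated arrays 1, 2 and 3, against 0.08, -0.07 and -0.13 in unlesioned arrays 1, 2 and 3. For the actin control, the 3' minus 5' difference in log2 value, a measure of RNA quality, was -0.77, -0.08 and 0.57 in the regenerated arrays, against 0.11, 0.00 and -0.00 in the unlesioned arrays. The same reading of the GAPDH control was 0.21, -0.36 and 0.04 in the regenerated arrays, against 0.05, 0.60 and -0.05 in the unlesioned arrays, so the array that stood apart differed between the controls. The part of these readings in the results below was not tested beyond the fits that take the negative control reading as a covariate or leave out regenerated arrays 1 and 3.

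Regenerated neurons differed from unlesioned neurons at 344 of 15502 probe sets, or 2.22%, at a Benjamini-Hochberg adjusted limma p under 0.05, which is what called means in the following. Of these, 135 were higher in regenerated neurons (0.871% of those tested) and 209 were lower (1.35%). In all 344 the 3 regenerated arrays lay wholly above or wholly below the 3 unlesioned arrays, a separation seen in 19.6% of all probe sets. A log2 change over 1 in either direction was found in 7.42% of all probe sets, and 2310 probe sets had an unadjusted p under 0.05. A single gene symbol was known for 236 of the called probe sets. Among 58 called genes with several probe sets, all probe sets moved the same way in 51, and all were called in 9. With 1 value per gene, the mean of its probe sets, 199 of 8793 genes were called (2.26%), 80 higher (0.91%) and 119 lower (1.35%). The counts of each gene list below are of gene means and are to be read beside these shares. A member not called by its mean can still have a called probe set. All lists were drawn up with results of these data known, so their counts are no independent evidence. The groups did not overlap in 20.1% of all genes, and 6.77% had a log2 change over 1 in either direction.

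The count varied with the arrays in the fit. It was 58 without unlesioned array 3, 107 without unlesioned array 2 and 173 without unlesioned array 1. Without regenerated array 2 it was 137, and without regenerated array 3 it was 218. Omitting nonregenerated array 1, 2 or 3, which lend only their spread, gave 256, 220 and 228, and omitting regenerated array 1 gave 418. A fit without 1 array also has fewer arrays to estimate the spread, and this was not separated from the part of single arrays. The regenerated arrays 1 and 3, which had the higher negative control readings, were also left out together, which gave 411 called probe sets, 161 of them shared with the 344. After centring arrays on their 75th percentile the split was 99 higher and 282 lower, as the median change of all probe sets moved to -0.06 from 0.05. The call of 50 probe sets held in each of the 9 fits that left out 1 array, 25 higher and 25 lower.

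**Figure D1:**
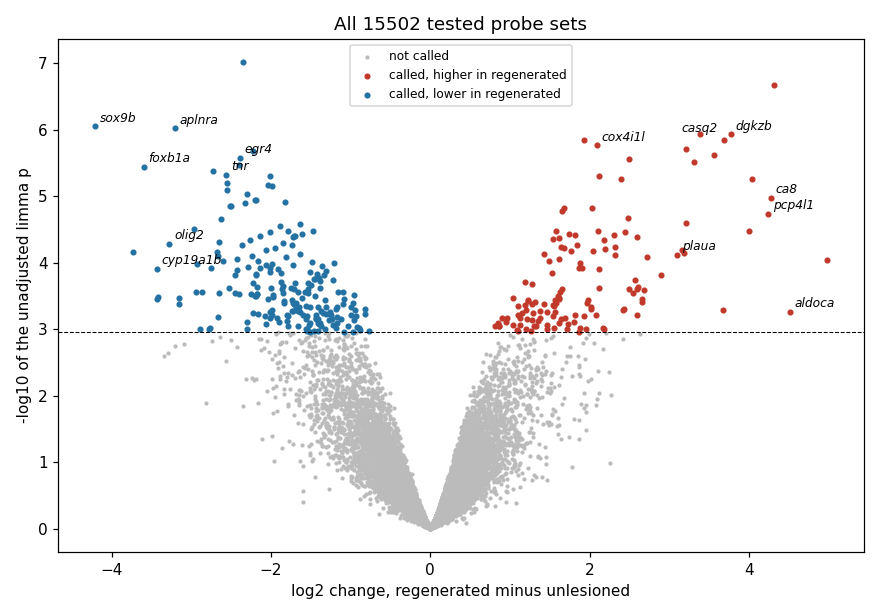
Each point is 1 of the 15502 tested probe sets, with the log2 change (regenerated minus unlesioned) on the x axis and -log10 of the unadjusted limma p on the y axis. Points above the dashed line were called, 135 higher (red) and 209 lower (blue), and the labelled genes are described in the text.

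**Figure D2:**
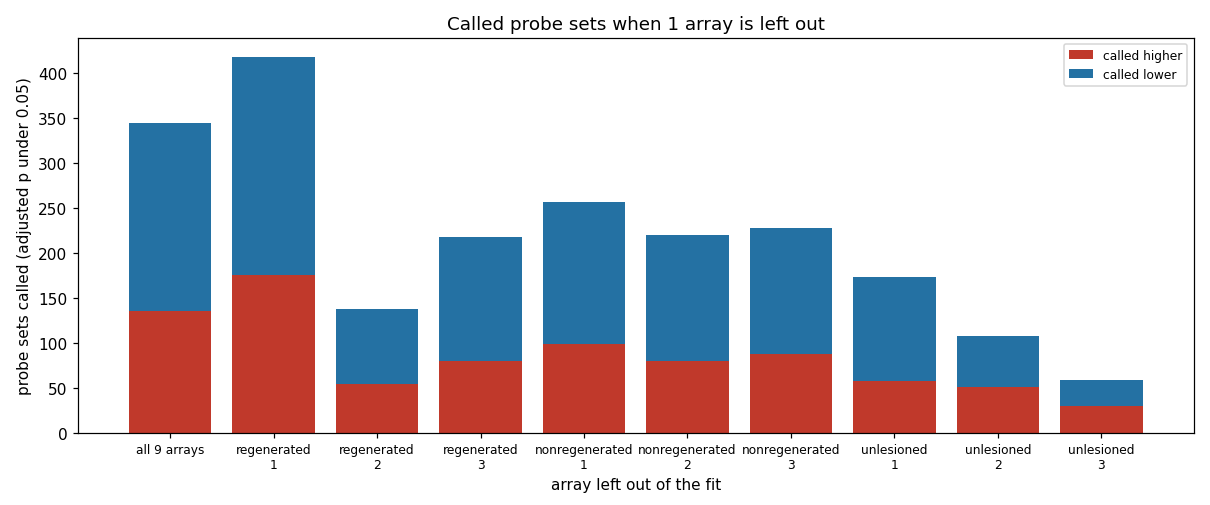
Bars give the number of probe sets called higher (red) and lower (blue) with all 9 arrays and with each array left out of the fit in turn. The count was 344 with all arrays and between 58, without unlesioned array 3, and 418, without regenerated array 1.

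The genes that rose most in regenerated neurons were led by genes known from Purkinje cells, the output neurons of the cerebellar cortex, whose axons are not known to reach the spinal cord. The carbonic anhydrase relative ca8, which dampens calcium release from internal stores, had values of 3.10, 3.62 and 3.49 in regenerated arrays, against -1.86, 0.20 and -0.97 in unlesioned arrays. The parvalbumin gene pvalb7, a calcium buffer that marks Purkinje cells in zebrafish, had 4.39, 4.64 and 4.2 in regenerated arrays, against -0.57, 1.78 and 0.00 in unlesioned arrays. The Purkinje cell protein 4 relative pcp4l1 had 4.13, 4.72 and 4.21 in regenerated arrays, against -0.02, 1.21 and -0.85 in unlesioned arrays. For these 3 genes the regenerated arrays lay close together and unlesioned array 2 was the highest of its group. Aldolase C, encoded by aldoca and known as the zebrin II antigen, had 5.93, 5.58 and 5.19 in regenerated arrays, against 0.00, 3.46 and -0.33 in unlesioned arrays. Its unlesioned array 2 again stood above the other two, below all 3 regenerated arrays.

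The log2 change was 4.27 ± 0.49 for ca8 (19.3-fold; standard error, as for all changes below), 4.24 ± 0.53 for pcp4l1, 4.01 ± 0.54 for pvalb7 and 4.52 ± 0.87 for aldoca, with limma adjusted p-values of 0.00568, 0.0074, 0.0104 and 0.0358. The second probe set of ca8 rose by 4.04. The Purkinje list, like all lists here, was drawn up with results of these data known and is no independent evidence. It had 17 measured genes, of which 6 rose and none fell, against 0.91% and 1.35% of all genes. The other members that rose were dgkzb and casq2. After quantile normalization 3 rose, the calls of aldoca, pcp4l1 and pvalb7 being lost, and after centring arrays on their 75th percentile 1 member fell. The median of the list was 0.70 (1.13 without regenerated array 1), where the median of all 8793 genes was 0.06. Changes above 0 were found for only 10 of the 17 members, where 4954 of all 8793 genes had one. Other Purkinje genes were not called, with lhx1a at 0.99 ± 0.29, gad1b at 1.33 ± 0.35, foxp2 at -0.64 ± 0.31, rorab at -0.82 ± 0.19 and pcp4a at -1.01 ± 0.40. The mean of the Purkinje list was 1.39, 1.69 and 1.69 in the regenerated arrays and -0.04, 0.55 and -0.03 in the unlesioned arrays. Leaving out 1 array ended no call of ca8 or pcp4l1, and ended that of pvalb7 without unlesioned array 3 (3.81). The call of aldoca was lost without any array but unlesioned array 2, at 3.84 to 4.71.

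**Figure D3:**
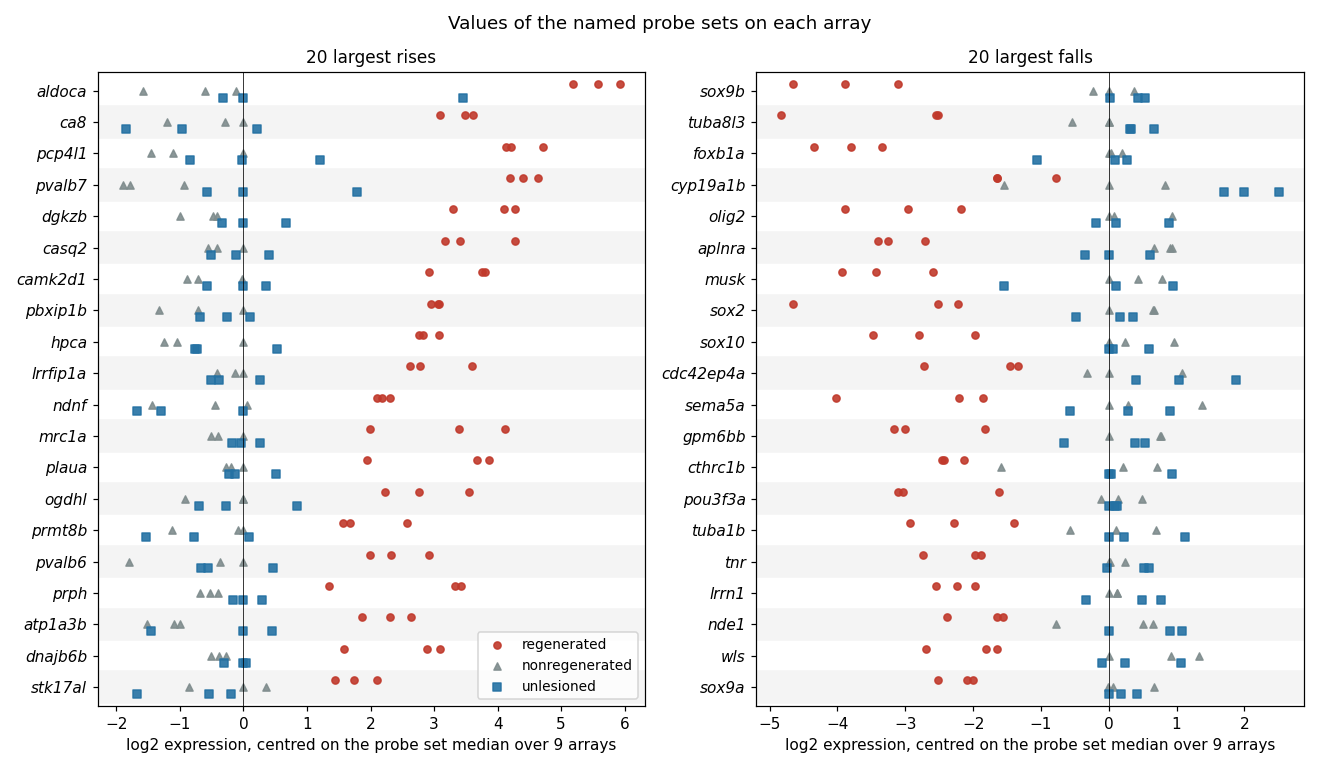
Points are the values on each of the 9 arrays (x axis, log2 expression centred on the probe set's median) for the 20 largest rises and the 20 largest falls among those called whose gene is known. Only probe sets whose regenerated arrays (red circles) lay apart from the unlesioned arrays (blue squares) were eligible. Nonregenerated arrays (grey triangles) are shown for reference.

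Other genes of calcium and lipid signalling were among the 20 largest rises. The diacylglycerol kinase gene dgkzb, which ends diacylglycerol signals, had 3.29, 4.27 and 4.11 in regenerated arrays, against 0.00, -0.34 and 0.66 in unlesioned arrays. The calsequestrin gene casq2, whose product holds calcium in internal stores, had 3.40, 3.17 and 4.28 in regenerated arrays, against -0.11, 0.40 and -0.51 in unlesioned arrays. The calcium/calmodulin-dependent kinase gene camk2d1 had 3.80, 3.75 and 2.92 in regenerated arrays, against -0.58, 0.36 and 0.00 in unlesioned arrays. In each of these 3 genes the lowest regenerated array was more than 2 log2 units above the highest unlesioned array. The changes were 3.78 ± 0.34, 3.69 ± 0.34 and 3.56 ± 0.35 (limma adjusted p = 0.00278, 0.00278 and 0.00306), and leaving out any 1 array ended none of these calls. The calcium sensor gene hpca (hippocalcin) rose by 3.21 ± 0.41, a call that was lost without unlesioned array 3 (3.00). The parvalbumin gene pvalb6 rose by 2.66 ± 0.49, and was lost in 5 of 9 such fits at 2.41 to 2.87. The calcineurin subunit gene ppp3cb had 2.14, 2.55 and 2.66 in regenerated arrays, against 0.52, -0.35 and 0.00 in unlesioned arrays, and its gene mean rose by 2.39 ± 0.26 (limma adjusted p = 0.00232 over genes).

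Ion pumps, exchangers and calcium buffers had 47 measured genes, of which 10 rose and 1 fell, against 0.91% and 1.35% of all genes. Their median was 0.29 and the mean of the list was 0.46, 0.61 and 0.66 in the regenerated arrays, against -0.09, 0.14 and -0.10 in the unlesioned arrays. The 10 rises include pvalb7, casq2, hpca and pvalb6, already described above, so they are not all separate from the rises given there. The sodium pump subunit gene atp1a3b, the neuronal form that restores the gradient after firing, had 1.87, 2.31 and 2.64 in regenerated arrays, against -1.46, 0.45 and 0.00 in unlesioned arrays. Its change was 2.61 ± 0.45 (limma adjusted p = 0.0255). The plasma membrane calcium pump gene atp2b1a, with the mean of its 3 probe sets at 1.77, 2.14 and 1.77 in regenerated arrays and at 0.22, -0.21 and -0.12 in unlesioned arrays, rose by 1.93 ± 0.24 (limma adjusted p = 0.00504 over genes). Its relative atp2b2 rose by 1.98 ± 0.36, the sodium pump partner atp1b2b by 2.19 ± 0.45, the parvalbumin gene pvalb8 by 1.15 ± 0.23 and the calcium-binding gene s100a1 by 1.86 ± 0.39. The sodium pump gene that fell was atp1a1b, which radial glia express in zebrafish, at -1.98 ± 0.35, with -1.42, -2.86 and -1.78 in regenerated arrays and -0.41, 0.00 and 0.27 in unlesioned arrays. The groups did not overlap for either subunit. The calls of atp1b2b, pvalb8 and s100a1 were each lost in 8 of 9 fits without 1 array, that of atp2b2 in 5 and that of atp1a3b in 3. The median was 0.18 without regenerated array 3. The 10 rises came to 4 without regenerated array 2 or unlesioned array 3, 5 without regenerated array 3 or unlesioned array 1 and 6 without unlesioned array 2. They came to 6 when the negative control reading was a covariate and to 2 after quantile normalization.

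Signalling genes of the calcium, kinase and lipid list had 5 of 37 members called, all of them higher (13.5%, against 0.91% of all genes), at a median of 0.17. Beside dgkzb, camk2d1 and ppp3cb these were a second diacylglycerol kinase gene, dgkaa, at 1.87 ± 0.29, and the G protein subunit gene gng3 at 0.76 ± 0.16. The regenerated arrays had 0.82, 0.80 and 0.66 for gng3, against -0.03, 0.03 and 0.00 in unlesioned arrays, a small and even difference whose call was lost in each of the 9 fits without 1 array, at 0.73 to 0.81. The kinase gene camk2d2 had 1.42, 2.28 and 1.55 in regenerated arrays, against -0.00, -0.03 and -0.03 in unlesioned arrays. Its gene mean was 1.77 ± 0.39 higher and was not called (limma adjusted p = 0.0511 over genes). Its 2 probe sets were at 1.52 and 2.01, and 1 of them was called. The call of dgkaa was lost in 3 such fits. The median was 0.11 without regenerated array 2, 0.07 without unlesioned array 1, 0.26 without unlesioned array 2 and 0.27 without unlesioned array 3. The count of 5 came to 3 without regenerated array 2, unlesioned array 2 or unlesioned array 3.

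Among the other large rises were genes of the cell surface, the cytoskeleton and metabolism. The urokinase gene plaua, a secreted protease that activates plasminogen and has been tied to axon growth in mammals, had 1.94, 3.86 and 3.67 in regenerated arrays, against -0.13, 0.52 and -0.22 in unlesioned arrays (3.10 ± 0.46, limma adjusted p = 0.0136). The neurotrophic factor gene ndnf had 2.1, 2.31 and 2.18 in regenerated arrays, against -1.30, 0.00 and -1.68 in unlesioned arrays (3.19 ± 0.47, limma adjusted p = 0.0135). The intermediate filament gene prph (peripherin), a marker of neurons with long axons, had 1.34, 3.33 and 3.42 in regenerated arrays, against -0.17, 0.00 and 0.29 in unlesioned arrays (2.66 ± 0.48, limma adjusted p = 0.0297). Regenerated array 1 was the lowest of its group for plaua and prph, and the groups of all 3 genes were apart, as their choice required. Other probe sets of prph gave 0.26, 1.61 and 2.60, of which the last was called. The call of plaua was lost without unlesioned array 3 (2.96), that of ndnf without unlesioned array 3 (2.84) or regenerated array 2 (3.13), and that of prph in 7 of the 9 fits, at 2.30 to 2.78.

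The transcriptional cofactor gene pbxip1b rose by 3.31 ± 0.33, with 2.95, 3.08 and 3.06 in regenerated arrays and -0.68, 0.10 and -0.25 in unlesioned arrays. The gene lrrfip1a, whose mammalian product binds the actin remodeller flightless, rose by 3.21 ± 0.30, and its other probe set was at 1.53 and not called. Neither call was lost when 1 array was left out. The chaperone gene dnajb6b rose by 2.60 ± 0.36, the kinase gene stk17al by 2.57 ± 0.43, the arginine methyltransferase gene prmt8b by 2.68 ± 0.47 and the oxoglutarate dehydrogenase relative ogdhl by 2.89 ± 0.47. The limma adjusted p-values of these 4 genes were 0.0104, 0.0215, 0.0262 and 0.019. Other probe sets of stk17al were at 1.92, 2.27 and 2.43, of which the last was called. Leaving out 1 array ended the call of dnajb6b without unlesioned array 3 (2.64), of ogdhl and stk17al in 3 fits each (2.56 to 2.93 and 2.13 to 2.70) and of prmt8b in 4 (2.28 to 2.81). The mannose receptor gene mrc1a, a marker of macrophages and of lymphatic-type cells around zebrafish brain vessels, had 1.99, 4.11 and 3.39 in regenerated arrays, against -0.19, -0.04 and 0.25 in unlesioned arrays (3.16 ± 0.46, limma adjusted p = 0.0129). The lymphatic receptor gene flt4 had 0.46, 1.70 and 2.88 in regenerated arrays, against -0.02, 0.00 and -0.29 in unlesioned arrays, and was not called (1.79 ± 0.48, limma adjusted p = 0.105 over genes). The part of such cells in the mrc1a result was not tested, and its call was lost without unlesioned array 2 (3.13) or unlesioned array 3 (3.28).

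Genes of mitochondrial respiration leaned higher. Of 81 measured genes of oxidative phosphorylation 76 had a change above 0, and their median was 0.47, where 4954 of all 8793 genes had a change above 0. The mean of the list was 0.10, 0.60 and 0.59 in the regenerated arrays, against -0.08, -0.26 and 0.03 in the unlesioned arrays, so regenerated array 1 lay close to the unlesioned range and arrays 2 and 3 above it. Of the 81 genes 3 rose (3.70%, against 0.91% of all genes) and none fell. The cytochrome c oxidase subunit gene cox4i1l had 1.92, 2.30 and 1.94 in regenerated arrays, against 0.00, 0.10 and -0.20 in unlesioned arrays (2.09 ± 0.20, limma adjusted p = 0.00168 over genes). The oxidase subunit gene cox6b1 rose by 1.77 ± 0.26 and the oxidase-associated gene ndufa4b by 1.97 ± 0.36. The alternative subunit gene cox4i2, which mammals use under low oxygen, had -0.39, -1.49 and -2.28 in regenerated arrays, against -0.20, 0.00 and 0.31 in unlesioned arrays, and was not called (-1.43 ± 0.40, limma adjusted p = 0.121 over genes). The calls of cox4i1l and cox6b1 held when any 1 array was left out, and that of ndufa4b was lost in 5 of 9 fits, at 1.69 to 2.11.

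Glycolysis and glucose use had 3 of 62 genes called higher and 2 lower (4.84% and 3.23%, against 0.91% and 1.35% of all genes), at a median of 0.32. The lactate dehydrogenase gene ldhbb, the form that favours turning lactate into pyruvate, had 2.13, 3.21 and 2.38 in regenerated arrays, against -0.06, 0.90 and -0.09 in unlesioned arrays (2.32 ± 0.34, limma adjusted p = 0.00987 over genes). The regulator gene pfkfb3 rose by 1.56 ± 0.25, and aldoca was the third gene to rise. The phosphofructokinase gene pfklb, of the liver type, fell with -1.29, -1.74 and -0.90 in regenerated arrays, against -0.21, -0.06 and 0.45 in unlesioned arrays (-1.37 ± 0.25). The enolase gene eno1b, the form found outside neurons, had -1.70, -2.23 and -2.14 in regenerated arrays, against -1.06, 0.15 and 0.00 in unlesioned arrays (-1.72 ± 0.32). These opposed changes had limma adjusted p-values over genes of 0.016 for pfkfb3, 0.0271 for pfklb and 0.0264 for eno1b. None of the 5 genes was called after quantile normalization, and ldhbb and pfkfb3 were lost without unlesioned array 3 (2.15 and 1.35), pfkfb3 also without regenerated array 2 (1.43). The calls of pfklb and eno1b were lost in 3 fits (-1.43 to -1.16) and 4 fits (-1.66 to -1.49).

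Few general neuronal genes were called. Of 29 measured pan-neuronal markers 2 rose, atp1a3b and gng3 (6.90%, against 0.91% of all genes). None fell, and the median was 0.19 (0.32 without regenerated array 1). Changes of the members ran from -1.67 to 2.61, with 19 of 29 above 0. Over the alternative runs 0 to 2 members were called higher and 0 to 1 lower. The vesicle fusion genes snap25a and snap25b were at 0.11 ± 0.28 and 0.60 ± 0.41, and the calcium sensor of release syt1a was at 0.02 ± 0.34. The RNA-binding neuronal genes elavl3 and elavl4 were at -0.81 ± 0.23 and -0.44 ± 0.27. For elavl3 the regenerated arrays had -0.11, -0.05 and -0.54, against 0.99, 0.45 and 0.29 in unlesioned arrays, with groups apart but no call (limma adjusted p = 0.124 over genes). Calls of the 2 genes that rose were lost one or both in all 9 fits without 1 array, and both without regenerated array 2, regenerated array 3 or unlesioned array 3.

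Genes of inhibitory transmission had 1 of 15 members called, higher (6.67%, against 0.91% of all genes). The glycine receptor beta subunit gene glrba had 1.42, 1.18 and 1.99 in regenerated arrays, against -0.07, -0.02 and 0.00 in unlesioned arrays (1.56 ± 0.28, limma adjusted p = 0.0253 over genes). The GABA-making enzyme genes gad1b and gad2 were at 1.33 ± 0.35 and 0.88 ± 0.41, and the vesicular transporter gene slc32a1, which loads GABA and glycine, was at 1.14 ± 0.51, none of them called. For gad1b the groups were apart, with 0.89, 1.43 and 1.36 in regenerated arrays and -0.53, 0.41 and -0.18 in unlesioned arrays (limma adjusted p = 0.096 over genes). The call of glrba was lost without regenerated array 3 (1.33) or unlesioned array 1, 2 or 3 (1.54 to 1.58). Only 4 genes of excitatory transmission were measured and none was called, among them the glutamate receptor gene gria2a at 0.49 ± 0.21 and the postsynaptic calmodulin-binding gene nrgna at -1.33 ± 0.55. None of 18 monoamine and neuropeptide genes was called, at a median of -0.36, which was -0.11 without regenerated array 2 and -0.21 without unlesioned array 3. The tyrosine hydroxylase gene th was at -1.18 ± 0.46, and the oxytocin gene oxt at 2.26 ± 1.23, with 2.46, -1.59 and 4.41 in regenerated arrays against 0.00, -0.86 and -0.63 in unlesioned arrays, where the groups overlapped.

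Of 11 measured channel genes 1 rose (9.09%, against 0.91% of all genes). It was scn3b, an auxiliary subunit of the voltage-gated sodium channel, at 1.15, 1.02 and 1.24 in regenerated arrays and -0.07, -0.23 and -0.18 in unlesioned arrays (1.30 ± 0.25, limma adjusted p = 0.032 over genes). Its call was lost in 7 of 9 fits without 1 array, at 1.25 to 1.35. Over gene means, the vesicle and release list had none of 40 genes called higher and 3 lower (7.5%, against 1.35% of all genes). These were the vesicle protein gene syngr2b (-1.49 ± 0.24), the syntaxin-binding gene stxbp3, which acts in fusion outside synapses in mammals (-1.38 ± 0.23), and the synaptic adhesion gene nlgn1 (-1.76 ± 0.38). The median of this list was 0.04, and -0.07 after centring arrays on their 75th percentile, so it has no settled direction. The 3 calls were all lost without unlesioned array 3 (-1.49, -1.33 and -1.54), that of stxbp3 also without regenerated array 2 or unlesioned array 2, and that of nlgn1 in 7 of the 9 fits (-1.90 to -1.54). The list member sypl2a, not called by its mean, had 2 probe sets at 0.88 and 1.53, and 1 of them was called.

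The falls in regenerated neurons were led by sox9b, and included other genes known from radial glia, the progenitors of the adult fish brain. The transcription factor sox9b, which sets glial fate, had -3.11, -4.66 and -3.89 in regenerated arrays, against 0.01, 0.42 and 0.53 in unlesioned arrays. Its duplicate sox9a had -2.09, -2.0 and -2.52 in regenerated arrays, against 0.00, 0.18 and 0.41 in unlesioned arrays. The progenitor factor gene sox2 had -2.23, -4.65 and -2.52 in regenerated arrays, against -0.48, 0.36 and 0.17 in unlesioned arrays. Both sox9 genes were even among unlesioned arrays, and regenerated array 2 had the lowest value for sox9b and sox2. The changes were -4.21 ± 0.36 for sox9b, -2.40 ± 0.24 for sox9a and -3.15 ± 0.57 for sox2 (limma adjusted p = 0.00278, 0.00334 and 0.0295). A second probe set of sox9b fell by 2.2, while 2 others of sox2 were at -1.83 and -1.45 and not called. The calls of sox9b and sox9a held when any 1 array was left out. That of the sox2 probe set of largest change was lost without unlesioned array 1 (-3.40), 2 (-2.98) or 3 (-3.07).

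The radial glia and astroglia list had 35 measured genes, of which 9 fell and 1 rose, against 1.35% and 0.91% of all genes. Its median was -0.91. The list mean was -0.57, -1.29 and -1.02 in the regenerated arrays and -0.19, 0.20 and 0.21 in the unlesioned arrays. Brain aromatase, encoded by cyp19a1b and made in fish radial glia, turns androgens into oestrogens. Its probe set of largest change had -1.65, -0.78 and -1.66 in regenerated arrays, against 2.00, 2.50 and 1.70 in unlesioned arrays (-3.43 ± 0.54, limma adjusted p = 0.017), and the mean of its 3 probe sets fell by 2.14 ± 0.34. The membrane protein gene gpm6bb fell by 2.75 ± 0.43, the progenitor gene sox19a by 2.19 ± 0.39, the receptor gene notch3 by 2.04 ± 0.37 and the intermediate filament gene vim by 1.93 ± 0.41. Beside atp1a1b these complete the genes that fell. The member that rose was msi2b, an RNA-binding gene of progenitors that some neurons also express, at 1.33 ± 0.28. The astroglial filament gene gfap had -0.65, -0.68 and 0.00 in regenerated arrays, against -0.09, 0.18 and -0.35 in unlesioned arrays, and was not called (-0.36 ± 0.28, limma adjusted p = 0.579 over genes). Over gene means, the call of sox2 was lost in 8 of 9 fits without 1 array, at -2.29 to -1.62. Those of vim and msi2b were each lost in 7 such fits and that of notch3 in 4. The gene-mean calls of cyp19a1b, sox19a and gpm6bb were lost in 3 and that of atp1a1b in 2. Omitting regenerated array 1 gave 15 falls in place of 9, omitting regenerated array 2 gave 4, and omitting unlesioned array 2 or 3 gave 2. The count was 6 with the negative control covariate and 3 after quantile normalization.

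Some oligodendrocyte lineage genes also fell. The lineage factor gene olig2 had -2.17, -2.96 and -3.89 in regenerated arrays, against -0.19, 0.10 and 0.88 in unlesioned arrays. The factor gene sox10, needed for myelinating glia, had -2.79, -1.98 and -3.47 in regenerated arrays, against 0.06, 0.00 and 0.59 in unlesioned arrays. In both genes the groups were more than 1 log2 unit apart. Their changes were -3.27 ± 0.46 and -2.97 ± 0.39 (limma adjusted p = 0.012 and 0.0104). The list had 14 measured genes, of which 4 fell and none rose, against 1.35% and 0.91% of all genes. Beside olig2 and sox10, nkx2.2a (-1.61 ± 0.29) and gpm6bb fell, the last also counted in the radial glia list. The median of the list was -0.89. Changes above 0 were found for 2 members, the larger at 2.02 and not called. The genes of mature myelin were not called, with cldnk at -2.02 ± 0.47, mbpa at -0.51 ± 0.48 and mbpb at -0.62 ± 0.32. The list mean was -0.72, -0.61 and -1.34 in the regenerated arrays and 0.01, 0.03 and 0.40 in the unlesioned arrays. Over probe sets, the calls of olig2 and sox10 were lost without unlesioned array 3 (-2.96 and -2.78). Over gene means, that fit kept both and lost nkx2.2a (-1.31) and gpm6bb (-2.60), so the 4 falls came to 2. The gene-mean calls of nkx2.2a and gpm6bb were each lost in 3 fits without 1 array. The falls came to none when the negative control reading was a covariate.

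**Figure D4:**
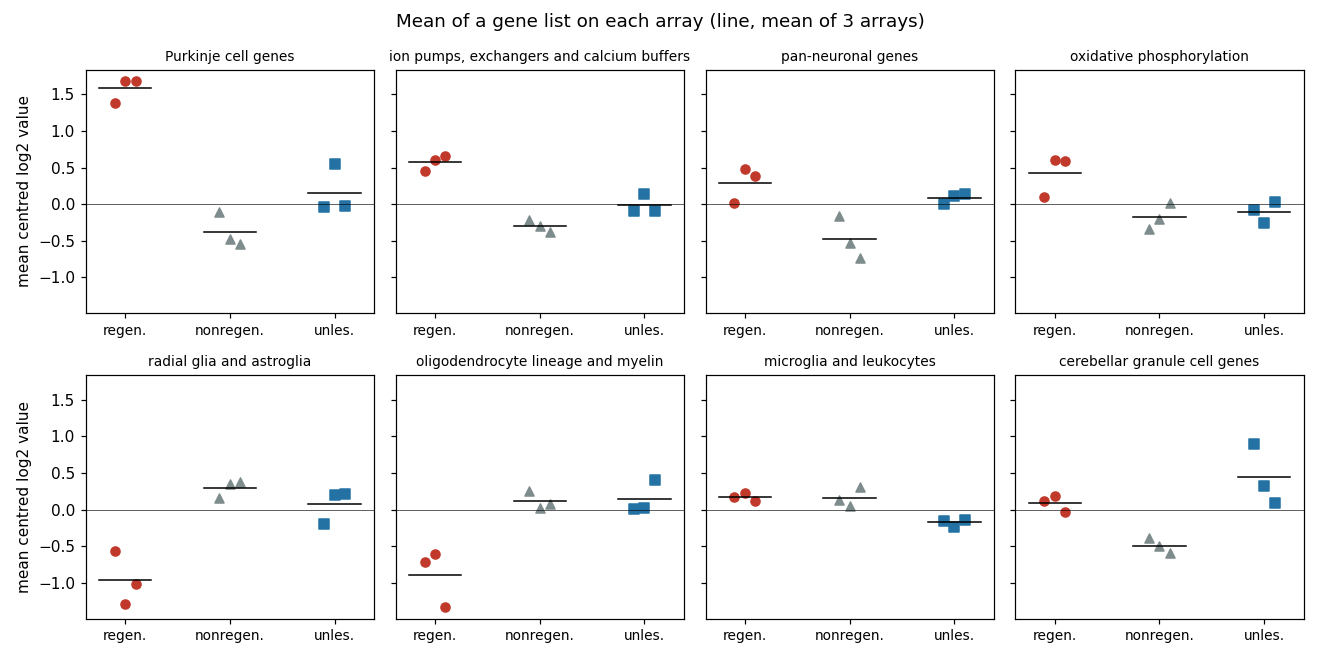
Each panel gives the mean centred log2 value of a gene list on each array (y axis), with a line at the mean of the 3 arrays of a group, for regenerated, nonregenerated and unlesioned neurons from left to right. The Purkinje list lies at 1.39 to 1.69 in regenerated arrays, and the radial glia and oligodendrocyte lists lie below 0 there.

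Some transcription factor genes of regional identity fell. The forkhead gene foxb1a, known from the developing hypothalamus, midbrain and hindbrain, had -3.80, -3.34 and -4.35 in regenerated arrays, against -1.06, 0.09 and 0.26 in unlesioned arrays (-3.60 ± 0.37, limma adjusted p = 0.00334). The neural POU factor gene pou3f3a had -1.62, -3.10 and -3.04 in regenerated arrays, against 0.09, 0.00 and 0.12 in unlesioned arrays (-2.65 ± 0.37, limma adjusted p = 0.0114). The forebrain and cerebellar nuclear factor gene tbr1b had 0.00, -0.07 and 0.03 in regenerated arrays, against 1.19, 0.97 and 1.45 in unlesioned arrays (-1.21 ± 0.19, limma adjusted p = 0.0132 over genes). The groups did not overlap for any of these 3 genes, which the choice of foxb1a and pou3f3a required. Of 38 measured factors of hindbrain and descending neurons, foxb1a and tbr1b fell and none rose, against 1.35% and 0.91% of all genes. The median was 0.10, which was -0.01 after centring arrays on their 75th percentile and -0.12 with the negative control covariate. Other probe sets of pou3f3a gave -2.46, called, and -1.03, not called. The call of foxb1a held when any 1 array was left out, and those of pou3f3a (-2.63) and tbr1b (-1.09) were lost without unlesioned array 3.

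Receptor genes with large falls included aplnra, the receptor for apelin, known from vessels and from migrating cells, with -2.71, -3.40 and -3.26 in regenerated arrays, against -0.35, 0.00 and 0.61 in unlesioned arrays (-3.21 ± 0.28, limma adjusted p = 0.00278). The receptor kinase gene musk, which organises the neuromuscular junction, had -2.59, -3.43 and -3.93 in regenerated arrays, against -1.55, 0.11 and 0.95 in unlesioned arrays (-3.15 ± 0.59, limma adjusted p = 0.032). Unlesioned arrays ranged widely for musk, with array 1 about 1 log2 unit above the nearest regenerated array. The membrane protein gene lrrn1, of the leucine-rich repeat family, fell by 2.56 ± 0.29 at 1 probe set, while its 3 others were at -1.15, -0.89 and -0.78 and not called. The Wnt secretion gene wls fell by 2.45 ± 0.43, with other probe sets at -1.70 and -0.28. The Cdc42 effector gene cdc42ep4a fell by 2.94 ± 0.52, the secreted collagen-like gene cthrc1b by 2.66 ± 0.53, and nde1, which binds the dynein motor, by 2.52 ± 0.44, with 2 other probe sets of nde1 at -0.70 and -0.26 and another of cthrc1b at -2.08, none of them called. Calls of aplnra and lrrn1 held when any 1 array was left out. Those of musk, cthrc1b, nde1, cdc42ep4a and wls were lost in 6, 7, 4, 4 and 3 of 9 fits, at values from -3.19 to -2.12.

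Among cues and matrix proteins that steer or limit axons, falls outnumbered rises, as they did among all genes (119 against 80). Of 64 measured genes of axon guidance and adhesion 5 fell and 1 rose (7.81% and 1.56%), against 1.35% and 0.91% of all genes. The median was -0.32 (-0.20 without regenerated array 2). Tenascin-R, a matrix protein around axons that repels growth in culture, is encoded by tnr, with -2.74, -1.89 and -1.97 in regenerated arrays, against -0.03, 0.53 and 0.59 in unlesioned arrays (-2.56 ± 0.27, limma adjusted p = 0.00368). The repulsive guidance gene rgmd had -1.71, -2.15 and -1.75 in regenerated arrays, against -0.54, 0.11 and 0.00 in unlesioned arrays (-1.73 ± 0.25, limma adjusted p = 0.00901 over genes). The groups of both were apart by more than 1 log2 unit. The matrix proteoglycan gene vcanb (versican) fell by 1.98 ± 0.35, the receptor phosphatase gene ptprsa, which binds such proteoglycans, by 1.44 ± 0.29 and the semaphorin gene sema5a by 2.89 ± 0.61. The gene that rose was spon1b, a secreted F-spondin, at 1.57 ± 0.30, with 0.86, 1.54 and 1.42 in regenerated arrays and -0.56, -0.33 and 0.00 in unlesioned arrays. The relative rgma had -0.87, -2.72 and -1.20 in regenerated arrays, against -0.29, 1.03 and 0.68 in unlesioned arrays, and was not called (-2.07 ± 0.49, limma adjusted p = 0.0661 over genes). Calls of tnr and rgmd held when any 1 array was left out. That of sema5a was lost in all 9 such fits (-3.31 to -2.23), and those of vcanb, ptprsa and spon1b in 4, 6 and 5. The 5 falls came to 3 without regenerated array 2, nonregenerated array 3 or unlesioned array 3, and to 2 without unlesioned array 1 or 2.

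Genes known from axon growth in other injury models were called in both directions. Of 65 measured genes 2 rose and 4 fell (3.08% and 6.15%), against 0.91% and 1.35% of all genes. The median was -0.09, which was 0.01 with the negative control covariate. The rises were plaua and the small GTPase gene rhoab (1.31 ± 0.27). The MARCKS gene marcksb, whose product links membrane and actin in growth cones, had -0.86, -1.75 and -1.55 in regenerated arrays, against 0.87, 0.23 and 0.60 in unlesioned arrays (-1.95 ± 0.28, limma adjusted p = 0.00914 over genes). Its relative marcksl1b fell by 1.32 ± 0.28 and the stress gene gadd45aa by 1.63 ± 0.31. The tubulin gene tuba1b had -2.93, -1.40 and -2.28 in regenerated arrays, against 0.00, 1.13 and 0.22 in unlesioned arrays, at its probe set of largest change (-2.65 ± 0.47, limma adjusted p = 0.027). Its second probe set, which can cross-hybridize, fell by 2.22. The 4 falls came to 2 without regenerated array 2 and to 1 without unlesioned array 1, 2 or 3, and the 2 rises came to 1 in 7 of the 9 such fits and to none without unlesioned array 3.

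The growth-associated protein gene gap43, the classic marker of a growing axon, had -0.96, -0.24 and -0.34 in regenerated arrays, against 0.05, 0.67 and 0.69 in unlesioned arrays. The groups were apart, and the change of -0.99 ± 0.29 was not called (95% interval -1.63 to -0.34, limma adjusted p = 0.133 over genes). The injury factor gene atf3 had 0.34, 0.14 and 0.05 in regenerated arrays, against -0.70, -0.15 and -1.26 in unlesioned arrays (0.88 ± 0.31, 95% interval 0.19 to 1.56). The cytokine pathway gene stat3 was at 0.65 ± 0.27, with 0.08, -0.52 and 0.59 in regenerated arrays and -0.56, -0.60 and -0.65 in unlesioned arrays. Neither was called, with limma adjusted p-values over genes of 0.205 and 0.303. The neuronal growth factors sox11a and sox11b were at -0.61 ± 0.23 and -0.19 ± 0.26, the Krüppel-like genes klf6a and klf7b at -0.29 ± 0.30 and -0.77 ± 0.38, mycb at -0.73 ± 0.22 and jun at 0.10 ± 0.18. The cytokine brake socs3b was at -0.02 ± 0.40 (95% interval -0.92 to 0.87) and the growth brake ptena at 0.25 ± 0.23 (-0.27 to 0.78). The microtubule regulator stmn2a was at 0.01 ± 0.21 (-0.46 to 0.48), the adhesion genes l1cama and cntn2 at -0.79 ± 0.45 and 0.41 ± 0.46, and the neuropeptide gene adcyap1b (PACAP) at -1.64 ± 0.52. None of these was called, and a missed threshold does not show that their levels were equal. Of a fixed set of 33 genes named by role 27 were measured and 4 were called, all lower, namely tuba1b, marcksb, tnr and cyp19a1b. Leaving out regenerated array 3 gave a call to adcyap1b (-2.28).

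The microtubule list had 2 of 48 genes called lower (4.17%, against 1.35% of all genes) and none higher, at a median of -0.01. The alpha-tubulin gene tuba8l3 had -2.51, -2.54 and -4.83 in regenerated arrays, against 0.33, 0.66 and 0.31 in unlesioned arrays (-3.73 ± 0.55, limma adjusted p = 0.0132), and tuba1b was the other. Another alpha-tubulin gene, tuba8l2, had 0.38, 2.2 and 2.14 in regenerated arrays, against 0.00, -0.26 and -0.29 in unlesioned arrays, and was not called (1.76 ± 0.42, limma adjusted p = 0.0728 over genes). The beta-tubulin gene tubb5 was at -1.67 ± 0.38 and was not called either. Of 55 genes of neurofilaments, actin and growth cones 4 fell and 1 rose (7.27% and 1.82%, against 1.35% and 0.91% of all genes), at a median of -0.05. The falls were marcksb, marcksl1b, vim and the tropomyosin gene tpm1 (-1.73 ± 0.31), and the rise was rhoab. Related transcripts can share probes, so the tubulin values are uncertain between isotypes. The call of tuba8l3 was lost without unlesioned array 2 (-3.62) or 3 (-3.79), that of tuba1b without regenerated array 3 (-2.62) or unlesioned array 1, 2 or 3 (-2.88 to -2.31), those of rhoab and marcksl1b in 8 of 9 fits each, that of vim in 7 and that of tpm1 in 3.

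**Figure D5:**
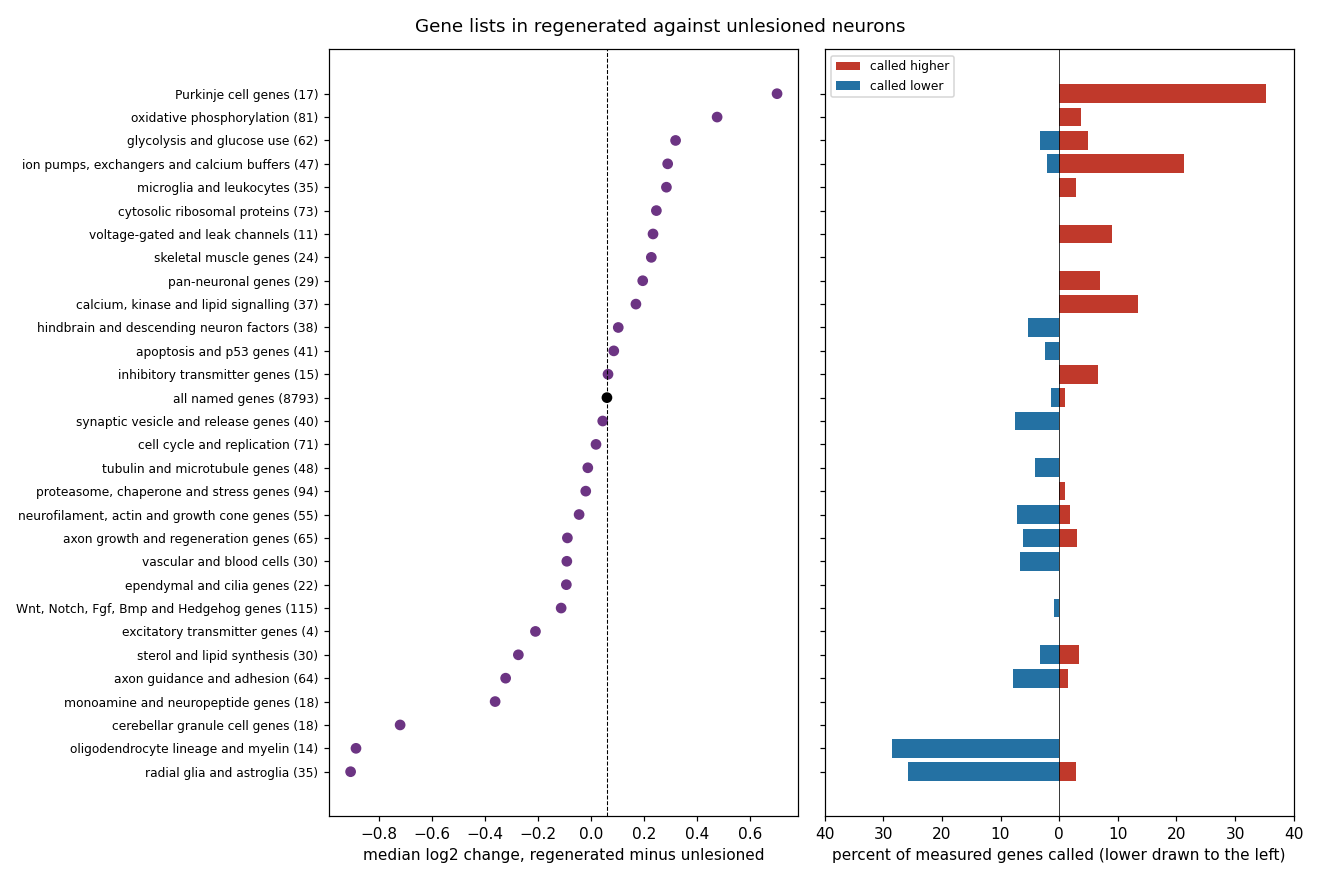
The left panel gives the median log2 change (regenerated minus unlesioned) of each gene list, with the number of measured genes in brackets and a dashed line at the median of all 8793 genes. The right panel gives the percent of measured genes called higher (red, to the right) and lower (blue, to the left). The Purkinje list has the highest median (0.70) and the radial glia list the lowest (-0.91).

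Markers of other cells that a sort could hold had a smaller share of calls than the radial glia list, but single genes changed widely. Of 35 microglia and leukocyte genes 1 rose, apoeb, an apolipoprotein gene of zebrafish microglia, with 0.67, 0.27 and 0.33 in regenerated arrays and -0.46, -0.77 and -0.34 in unlesioned arrays (0.95 ± 0.20, limma adjusted p = 0.0405 over genes). The list had 31 of 35 changes above 0 and a median of 0.28, and its mean was 0.18, 0.22 and 0.12 in the regenerated arrays, against -0.15, -0.23 and -0.14 in the unlesioned arrays. The call of apoeb was lost in each of the 9 fits without 1 array (0.83 to 1.04). The chemokine receptor gene cxcr4b was at 1.19 ± 0.29 and the lysozyme gene lyz at -2.81 ± 0.90, with 0.07, 0.05 and -0.55 in regenerated arrays and 4.27, -0.01 and 3.74 in unlesioned arrays. Among 30 genes of vessels and blood, aplnra and notch3 fell (6.67%), against 1.35% of all genes. The haemoglobin gene hbba2 had 1.33, -0.19 and 0.00 in regenerated arrays, against 4.27, 1.69 and 3.38 in unlesioned arrays, and was not called (-2.74 ± 0.60, limma adjusted p = 0.0513 over genes). The high unlesioned values of lyz and hbba2 fell on arrays 1 and 3, and their part in other results was not tested.

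Of 18 genes known from cerebellar granule cells none was called, at a median of -0.72. The changes went both ways, with 7 above 0 and the largest at 2.02. The median was -0.19 without regenerated array 3, -0.39 without unlesioned array 1 and -0.04 without regenerated arrays 1 and 3. The factor gene neurod1 had 1.15, 0.00 and -0.69 in regenerated arrays, against 2.93, 0.82 and 0.75 in unlesioned arrays, and neurod2 had 0.00, -0.91 and 0.02, against 2.76, 0.37 and 0.05. Unlesioned array 1 was the highest of its group for both. The groups overlapped for neurod1 and lay close together for neurod2. The list mean was 0.11, 0.19 and -0.04 in the regenerated arrays and 0.90, 0.33 and 0.09 in the unlesioned arrays. None of 22 ependymal and cilia genes and none of 24 skeletal muscle genes was called, at medians of -0.09 and 0.23. The muscle median was 0.02 when the negative control reading was a covariate.

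Several housekeeping and pathway lists held few or no calls. None of 73 cytosolic ribosomal protein genes was called, although 67 had a change above 0 (median 0.25, and 0.13 without unlesioned array 2), and none of 71 cell cycle genes (median 0.02). Among 94 proteasome, chaperone and stress genes 1 rose, the glutathione synthesis gene gclm (1.28 ± 0.24). Among 30 genes of sterol and lipid synthesis, apoeb rose and the sterol sensor partner insig1 fell, with -1.41, -1.86 and -1.19 in regenerated arrays and -0.21, 0.36 and 0.42 in unlesioned arrays (-1.68 ± 0.25, limma adjusted p = 0.01 over genes). Among 41 genes of apoptosis and the p53 pathway gadd45aa fell, and among 115 genes of Wnt, Notch, Fgf, Bmp and Hedgehog signalling notch3 fell. In the last list her3 and spred1, not called by their means, each had 1 called probe set. Changes ran from -1.70 to 0.24 over the 2 probe sets of her3 and from -1.71 to 0.04 over the 4 of spred1. The feedback gene spry2 and the Fgf target etv5b were at -1.22 ± 0.28 and -1.86 ± 0.41 and were not called. The calls of gclm, gadd45aa and notch3 were lost in 5, 6 and 4 fits without 1 array, and that of insig1 without unlesioned array 3 (-1.57).

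Some genes outside these groups are named because their calls held whichever array was left out, a choice made after their values were seen. The adaptor gene ywhaz, of the 14-3-3 family, had 1.81, 2.04 and 1.81 in regenerated arrays, against -0.22, 0.07 and 0.00 in unlesioned arrays (1.93 ± 0.18). The purine salvage gene hprt1 rose by 2.48 ± 0.31, the nucleoside diphosphate kinase gene nme2b.2 by 2.11 ± 0.28 and the basement membrane collagen gene col15a1a by 1.68 ± 0.20. Groups were wide apart in each of these. The immediate-early factor gene egr4 had -1.79, -1.91 and -2.12 in regenerated arrays, against 0.92, 0.16 and 0.27 in unlesioned arrays (-2.39 ± 0.23, limma adjusted p = 0.00306). The growth factor gene bmp3 fell by 2.30 ± 0.26, the nuclear factor gene nfixb by 2.18 ± 0.25, the cadherin gene cdh18a by 2.03 ± 0.22 and the RNA-binding gene caprin1a by 1.88 ± 0.25. That is 1 of 3 probe sets of caprin1a, and another was at 0.94, in the opposite direction.

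The nonregenerated arrays are set beside these results as values only, since the comparisons share arrays. Between nonregenerated and unlesioned neurons no probe set was called with limma, 790 having an unadjusted p under 0.05, while 380 (2.45%) were called between regenerated and nonregenerated neurons. Among the glial genes above, the difference of nonregenerated from unlesioned neurons was -0.28 for sox9b, 0.04 for sox9a, 0.42 for sox2, 0.08 for olig2, 0.18 for sox10 and 0.80 for gfap, and -2.31 for cyp19a1b. Among the Purkinje genes it was 0.37 for ca8, -0.25 for casq2, -0.74 for dgkzb, -0.97 for pcp4l1, -1.81 for aldoca and -1.95 for pvalb7. A few called genes, picked after their values were seen, had nonregenerated values nearer to the regenerated ones. The inflammasome adaptor gene pycard had 0.29, 0.02 and 0.15 in regenerated, -0.31, 0.00 and 0.14 in nonregenerated and -1.98, -1.57 and -0.81 in unlesioned arrays, a change of 1.60 ± 0.29 from unlesioned to regenerated neurons. The factor gene tbr1b had -0.30, -0.41 and -0.06 in nonregenerated arrays, 1.46 ± 0.19 below the unlesioned mean and not called (limma adjusted p = 0.195 over genes). Brain aromatase cyp19a1b had -1.54, 0.83 and 0.00 in nonregenerated arrays at its probe set of largest change. The first of these lay within the regenerated range and the others between the groups. At its other probe sets the nonregenerated means were -0.48 and -0.48, against -0.34 and -0.30 in regenerated and 1.34 and 1.00 in unlesioned arrays. These fell by 1.68, called, and 1.30, not called, from unlesioned to regenerated neurons. The fibrillar collagen gene col5a2a had -0.78, -0.70 and -0.33 in regenerated, 0.54, -0.79 and 0.00 in nonregenerated and 1.39, 1.41 and 1.36 in unlesioned arrays (-1.99 ± 0.31 against unlesioned), while its second probe set was at 0.21, of opposite sign. For these genes no call was made between nonregenerated and unlesioned neurons, which does not show that those groups were alike.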

How the data were processed

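Gene expression was measured on Affymetrix zebrafish arrays of neurons sorted by their tracer from adult brain, 3 arrays in each of 3 groups. Per the labels' protocols, RNA was amplified (Ovation Pico WTA) and biotin-labelled before hybridization. The authors deposited log2 values, made with RMA of unstated version per the submitters' processing notes. The median of each of 15617 probe sets over the 9 arrays was 0 (tolerance 1e-04), by a step the labels do not describe. Absolute levels and signal over background are therefore unknown.

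The 115 control probe sets were left out. Of the 15502 tested, 10795 had 1 gene symbol in the platform annotation, 135 several and 4572 none, and 10711 symbols were found in RefSeq's gene table (GRCz12tu, used for names only). A suffix that marks possible cross-hybridization was carried by 917. A limma model (limma 3.58.1, R 4.3.3) of group means was fitted to all 9 arrays, with 6 residual and 3.16 prior degrees of freedom, and p-values were two-sided and Benjamini-Hochberg adjusted within the comparison, over 15502 probe sets or, for list members outside the top genes, over the means of 8793 genes. P-values measure the spread between labelled biological replicates. Simulations of the regenerated against unlesioned comparison (15502 probe sets, 200 changed, 10 runs) drew independent normal noise for each array. The noise had 1 SD per probe set, from its mean variance over the 3 groups. There the model recovered 31.2% of log2 changes of 1, 79% of 2, 91.4% of 3 and 98.4% of 4. Of its calls 5.73% were false. In the data the spread could differ between groups, as for prph (SD 1.18 in regenerated and 0.23 in unlesioned arrays), so these rates need not hold.

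The members and gene lists were chosen with earlier results of these data known. Genes named were, from called probe sets of known gene whose groups did not overlap, the 20 that rose most and the 20 that fell most, up to 8 called genes of each of 29 lists by smallest p, and 33 fixed genes. Other uncalled list members were named as examples after their values were seen. So were some called genes outside these rules, such as ywhaz, egr4, pycard and col5a2a. Alternatives covered scaling, moderation, arrays in the fit, each array left out, thresholds, the negative control covariate and the replicate number as a block. Figures were drawn with matplotlib 3.10.9.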

Additional observations from a re-analysis of the deposited data

Results flagged for a closer look

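The median of the 22 negative control probe sets, which enter no comparison, was above the highest of the unlesioned arrays (0.08) in regenerated array 1, at 0.48, and in regenerated array 3, at 0.28. Regenerated array 2 was at 0.04. The nonregenerated arrays were at -0.16, -0.01 and -0.00.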

How the results depend on the processing

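None of the 40 named probe sets and 59 called gene means changed direction under any alternative run. Other called genes named here, such as ywhaz and egr4, were not part of this check. Against 344 probe sets called (135 higher, 209 lower), leaving out 1 array gave 58 to 418 (29 to 175 higher, 29 to 243 lower). Further quantile normalization gave 96 (46 higher, 50 lower), only the 6 arrays compared 158 (69, 89), and the negative control reading as covariate 130 (71, 59). Omitting regenerated arrays 1 and 3 together gave 411 (206, 205). An adjusted p under 0.1 gave 567 (205, 362), one under 1e-02 gave 44 (20, 24), and a test against a log2 change of 1 gave 12 (8, 4). Gene means gave 199 (80, 119), with fewer features tested. The 75th percentile gave 381 (99, 282), so 26.0% of calls were higher, against 39.2% in the deposited scaling, 54.6% with the covariate and 50.1% without regenerated arrays 1 and 3. Replicate numbers showed no pairing of regenerated with unlesioned arrays: those of the same number had correlations of deviations of -0.01, -0.03 and -0.13. For regenerated with nonregenerated arrays of the same number these were 0.12, -0.04 and 0.26, which does not settle a pairing there. The fit with the replicate block called 193 (77, 116). Apart from the smaller sets of samples or genes, the causes of these shifts were not tested. Of the 40 named probe sets, 19 lost their call after quantile normalization, 19 with the covariate and 27 without unlesioned array 3. Among the 59 called gene means, 38 lost their call after quantile normalization, 31 with the covariate and 36 without unlesioned array 3. With 3 arrays a group, small changes were hard to detect.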
